A study of Mus musculus with 6 samples.

Results

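The genes of the small subunit of the mitochondrial ribosome were examined in isolated brain microvessels of TEKCRIF1 KO mice. The genes were the rows whose symbol was Mrps followed by a number and, where present, a letter a to c, together with *Dap3*, *Ptcd3* and *Aurkaip1*, whose proteins belong to the same subunit under other names. The rule found 32 genes among the 23183 genes of the files. RNA was sequenced from brain microvessels of 3 WT mice (TEK-cre, *Crif1*+/+) and 3 KO mice (TEK-cre, *Crif1*flox/flox), labelled C57BL/6, with 1 library for each mouse. Both groups therefore carried TEK-cre, a Cre driven by the promoter of *Tek*, the endothelial receptor Tie2, which is also active in part of the blood lineage. The age of these mice was not given in the sources used here. *Crif1* is listed in the files under the symbol *Gadd45gip1*, and its protein sits on the large subunit near the exit of the peptide tunnel.

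The mitochondrial ribosome makes the few proteins encoded by mitochondrial DNA, all of them core parts of the respiratory chain and the ATP synthase. Its small subunit binds the messenger RNA and decodes it, and its large subunit joins the amino acids. The RNA of the small subunit comes from mitochondrial DNA, but every protein of it is encoded in the nucleus, made in the cytosol and imported. Some of these proteins have a counterpart in the bacterial ribosome, and others were added in the mitochondrial lineage. A symbol with the prefix Mrps does not always name a small subunit protein. The product of *Mrps18a* and that of *Mrps30* lie in the large subunit, and that of *Mrps36* is a part of the 2-oxoglutarate dehydrogenase complex. The 32 genes were therefore read as 16 small subunit genes with a bacterial counterpart, 13 small subunit genes specific to mitochondria, and these 3.

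The values were FPKM, fragments scaled for transcript length and for the mapped fragments of the library. Read totals were estimated from the spacing of the lowest FPKM values and came to between 8800000 and 11500000 fragments in the WT libraries and, in KO 1, KO 2 and KO 3, to 8000000, 6400000 and 11800000. KO 2 was thus the shallowest library. The 32 genes were far above the floor of this depth, with an estimated 51 to 1742 fragments for a gene in a library. A value of 3 fragments on a transcript of 1 kb would have been between 0.254 and 0.466 FPKM. *Gadd45gip1* measured 18.8 FPKM in WT 1, 15.3 in WT 2 and 16.5 in WT 3, against 10.8 in KO 1, 7.54 in KO 2 and 10.4 in KO 3, and all later lists of values follow this order. Every KO library was below every WT library, and the log2 fold change (KO minus WT, on the log2(FPKM + 1) scale throughout) was -0.77 (SE 0.217), with a limma p of 0.00534 before adjustment and 0.841 after Benjamini-Hochberg adjustment over all genes tested. Endothelial markers were present in every library, the summed level of the 10 markers being 1022 to 1447 FPKM in WT and 920 to 1242 FPKM in KO, and none of them was listed at 0. *Cdh5* among them, a cadherin of endothelial junctions, was lower in every KO library, 90.1 ± 3.02 FPKM in WT and 43.8 ± 6.42 in KO, with a limma p of 0.000303 before and 0.841 after adjustment. Of the 10 markers, 4 were higher in KO, and *Cdh5* was the only 1 with a limma p under 0.05 before adjustment. The preparation also held other cell types, and in such bulk RNA fewer cells of a type and less RNA per cell cannot be told apart. The summed level of 3 choroid plexus markers (*Ttr*, *Kl* and *Folr1*) was 2785 to 3267 FPKM in WT, 8674 in KO 1, 2898 in KO 2 and 10319 in KO 3. KO 1 and KO 3 thus stood apart from the other 4 libraries in these markers. Summed levels were 312 to 437 FPKM in WT and 265 to 314 in KO for astrocyte markers, 789 to 1285 and 833 to 935 for pericyte markers, 225 to 561 and 257 to 754 for smooth muscle markers, and 192 to 399 and 133 to 338 for neuron markers. They were 237 to 352 and 113 to 318 FPKM for oligodendrocyte markers, 94 to 106 and 77 to 90 for microglia markers, and 769 to 1092 and 463 to 693 for fibroblast markers. Erythroid markers summed to 1593 to 2425 FPKM in WT and 1166 to 2341 in KO, and 1 of the 3 was listed at 0 in a library. Fibroblast, astrocyte and microglia sums overlapped little or not at all between the groups, the fibroblast and microglia sums being lower in every KO library. Whether these shifts in the cell types of the preparation had a part in the values of the ribosome genes was not tested.

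Promoters of these genes are shown because many of the genes start beside another gene and hold common promoter motifs. Of the 32 genes, 11 (34.4%) had the start of a protein-coding gene on the opposite strand within 1 kb (1000 bp), against 14.9% of the 13236 tested protein-coding genes. In 3 of these pairs the neighbor also belongs to mitochondrial gene expression. *Mrps27* starts 81 bp from *Ptcd2*, which codes for an RNA-binding protein of mitochondria, *Mrps12* starts 172 bp from *Sars2*, the mitochondrial seryl-tRNA synthetase, and *Mrps11* overlaps the first part of *Mrpl46*, a large subunit gene. RefSeq promoters (GRCm38.p6, 250 bases before to 50 after the start, 300 in all) were found for 27 of the 32 genes. The letters CCGGAAG, the core of sites for ETS family factors, were found on either strand in 11 of 27 (40.7%), against 18.4% of the 10698 tested genes with a promoter. The letters AAGATGGC of the factor YY1 were in 7 of 27 (25.9%), against 5.0% of the tested genes, and the letters CGCATGCG of the factor NRF1 in 1 of 27 (3.7%), against 4.1%. The ETS or the YY1 letters were found for 15 genes and both for 3, *Mrps12*, *Mrps18a* and *Mrps27*. In *Mrps12* and *Mrps27* the matches share no bases. A match of letters is a description of the sequence and does not show that a factor bound there. The promoters of *Mrps27* and *Mrps12* are given as those with both motifs beside a mitochondrial neighbor, and that of *Mrps6* as the gene with the largest difference between KO and WT. Capitals mark the ETS and YY1 letters on either strand, each sequence is 5′ to 3′ on the strand of the gene, and the last 50 bases begin with the start.
*Mrps27*, chr13:99344536-99344835, plus strand: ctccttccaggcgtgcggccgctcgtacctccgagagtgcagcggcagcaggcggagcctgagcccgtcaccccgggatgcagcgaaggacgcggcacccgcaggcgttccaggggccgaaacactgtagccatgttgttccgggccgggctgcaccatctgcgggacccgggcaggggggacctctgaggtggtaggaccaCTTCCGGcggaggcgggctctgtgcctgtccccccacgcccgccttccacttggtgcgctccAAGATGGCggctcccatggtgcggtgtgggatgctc
*Mrps12*, chr7:28741772-28742071, minus strand: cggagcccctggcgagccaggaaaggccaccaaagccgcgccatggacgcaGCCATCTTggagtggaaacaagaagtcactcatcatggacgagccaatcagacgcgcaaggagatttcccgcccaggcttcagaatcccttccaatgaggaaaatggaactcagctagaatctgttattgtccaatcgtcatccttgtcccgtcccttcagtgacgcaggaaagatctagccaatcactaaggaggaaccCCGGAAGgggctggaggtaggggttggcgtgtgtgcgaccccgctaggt
*Mrps6*, chr16:92058086-92058385, plus strand: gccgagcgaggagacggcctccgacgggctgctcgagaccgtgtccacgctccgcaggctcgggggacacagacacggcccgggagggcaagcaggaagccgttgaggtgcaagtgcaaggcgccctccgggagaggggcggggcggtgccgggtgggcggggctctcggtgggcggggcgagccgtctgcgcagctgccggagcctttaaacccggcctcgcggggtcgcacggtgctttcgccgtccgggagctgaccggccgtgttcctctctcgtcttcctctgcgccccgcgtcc
In *Mrps27* the ETS letters begin 48 bases before the start on the reverse strand, and the YY1 letters begin 14 bases after it. In *Mrps12* the ETS letters begin 1 base after the start and the YY1 letters begin 199 bases before it, on the reverse strand. The *Mrps6* promoter held none of the 3 motifs.

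In WT microvessels, the 29 small subunit genes spanned a 15.9-fold range of mean level, from 127.2 ± 33.7 FPKM (SD, n = 3) for *Mrps21* to 8.01 ± 2.06 FPKM for *Mrps22*, with a median of 22.0 FPKM, although each protein is present once in the ribosome. The order of the genes was nearly the same in KO, with a Spearman coefficient of 0.968 between the WT and KO means across the 32 genes. The genes are not independent, as they were measured in the same libraries, and each gene has the same transcript length in both means. *Mrps21* codes for a protein with a bacterial counterpart and was the highest. It was at 120, 97.6 and 164 FPKM in WT and at 213, 83.5 and 161 FPKM in KO. KO 1 was above every WT library and KO 2 below every one of them. *Mrps18c*, the form of the S18 protein that sits in the small subunit as in bacteria, was the next highest, at 75.5, 80.0 and 77.6 FPKM in WT and at 105, 53.9 and 94.4 FPKM in KO. Its 3 WT values lay close together, with KO 1 and KO 3 above and KO 2 below all of them. *Mrps34*, specific to mitochondria and needed for the stability of the small subunit, was at 48.2, 57.3 and 52.3 FPKM in WT and at 60.6, 36.2 and 46.4 FPKM in KO, and the groups overlapped. Below it, *Aurkaip1* (46.2 ± 1.42 FPKM), *Mrps6*, *Mrps16* (44.1 ± 3.63) and *Mrps24* (43.1 ± 7.15) were within each other's spread in WT.

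The lowest genes were *Mrps2*, *Dap3* and *Mrps22*. *Mrps2*, with a bacterial counterpart, was at 10.04, 9.18 and 9.35 FPKM in WT and at 8.79, 6.82 and 11.1 FPKM in KO. *Dap3*, a GTP-binding protein of the small subunit that was first described in apoptosis, was at 8.89, 9.78 and 9.73 FPKM in WT and at 8.36, 6.27 and 10.9 FPKM in KO. In both genes the WT values lay within about 1 FPKM of each other, KO 2 was the lowest library and KO 3 the highest. *Mrps22*, specific to mitochondria, was at 7.58, 10.3 and 6.19 FPKM in WT and at 12.1, 5.89 and 8.19 FPKM in KO, with wide overlap. These 3 genes, *Mrps27* (9.57 ± 0.693 FPKM) and *Mrps31* (9.91 ± 2.75) did not differ in WT beyond their spread. The plot of FPKM by library shows all 32 genes in the order of their WT mean.

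**Figure D1:**
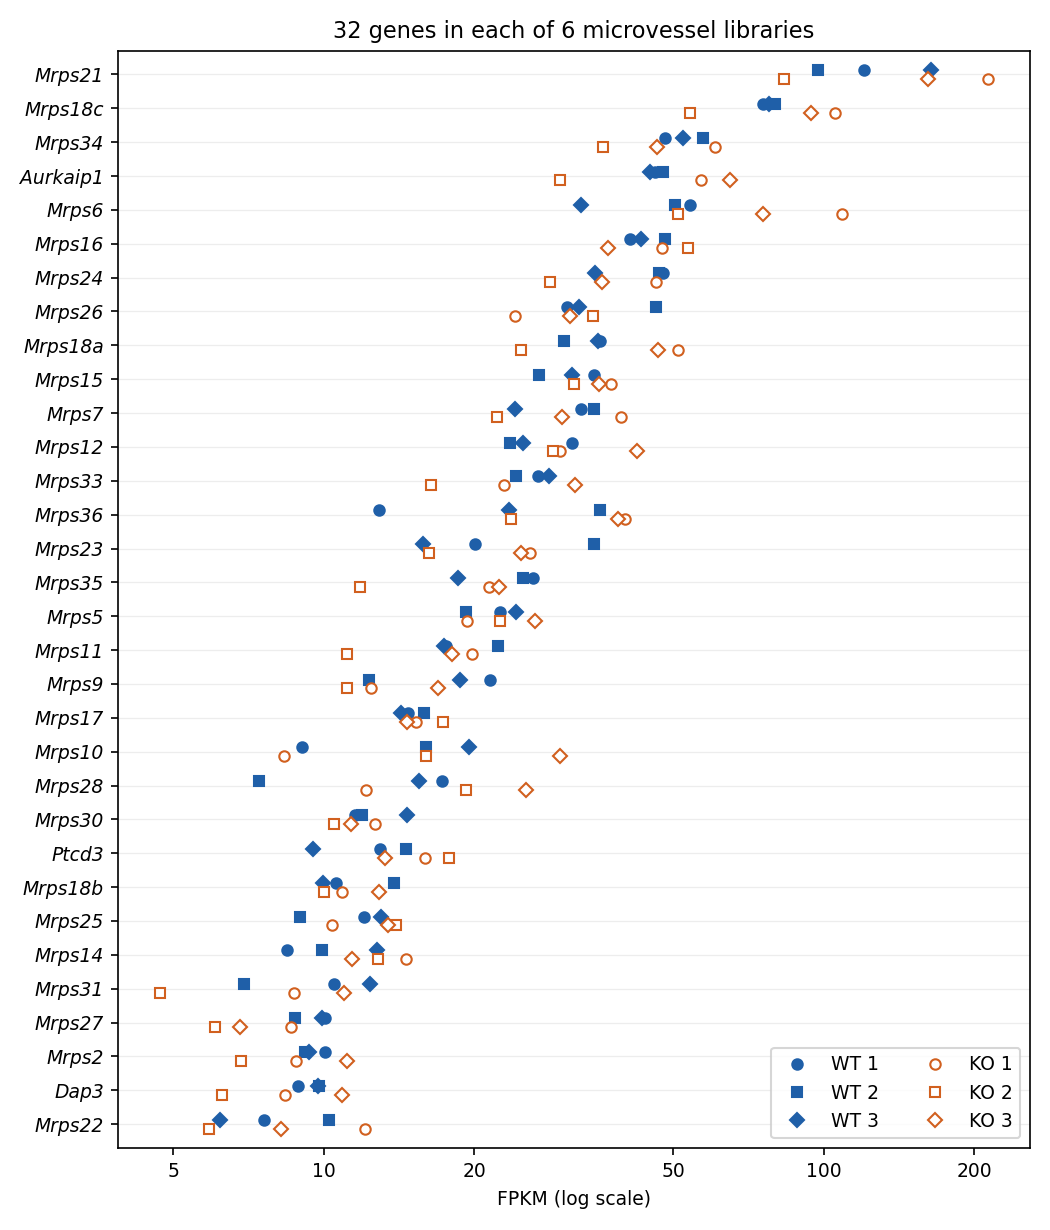
FPKM (log scale, x axis) of the 32 genes (y axis, ordered by WT mean) in each library; filled blue symbols are WT mice, open orange symbols are KO mice, and the shape gives the number of the mouse. The order from *Mrps21* to *Mrps22* runs over a 15.9-fold range in WT, and the open squares of KO 2 are the leftmost point in 17 of 32 genes.

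No gene of the small subunit differed between KO and WT mice after adjustment. Of the 32 genes, 17 were higher and 15 lower in KO, with a median log2 fold change of 0.045, against -0.0062 over all genes tested. This median turned to -0.03 after a correction for transcript length and to -0.10 without KO 1. Over all genes tested, 0 (0%) had an adjusted p under 0.05 in limma, the lowest adjusted p being 0.841, and 838 (5.88%) had a p under 0.05 before adjustment, 395 of them (2.77%) higher in KO. Among the 32 genes, 0 passed after adjustment and 1, *Mrps6*, was under 0.05 before it, a share near that of all genes. Every KO value was above every WT value in 0 of 32 genes, against 5.37% of all genes, and below every WT value in 1 of 32, *Mrps27*, against 5.7%. With 3 mice in each group an exact two-sided permutation test cannot give a p below 0.1, and 1 of the 32 genes reached that value. Standard errors of the log2 fold changes ran from 0.191 to 0.413 with a median of 0.243. The 95% interval lay within a 2-fold change in both directions for 28 of the 32 genes and within 1.5-fold for 5. At the spread of each gene, the smallest change that would have had a p under 0.05 before adjustment ran from 1.34-fold to 1.89-fold, with a median of 1.45-fold. The 4 genes whose interval passed a 2-fold change were *Mrps6*, *Mrps36*, *Mrps28* and *Mrps10*.

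**Figure D2:**
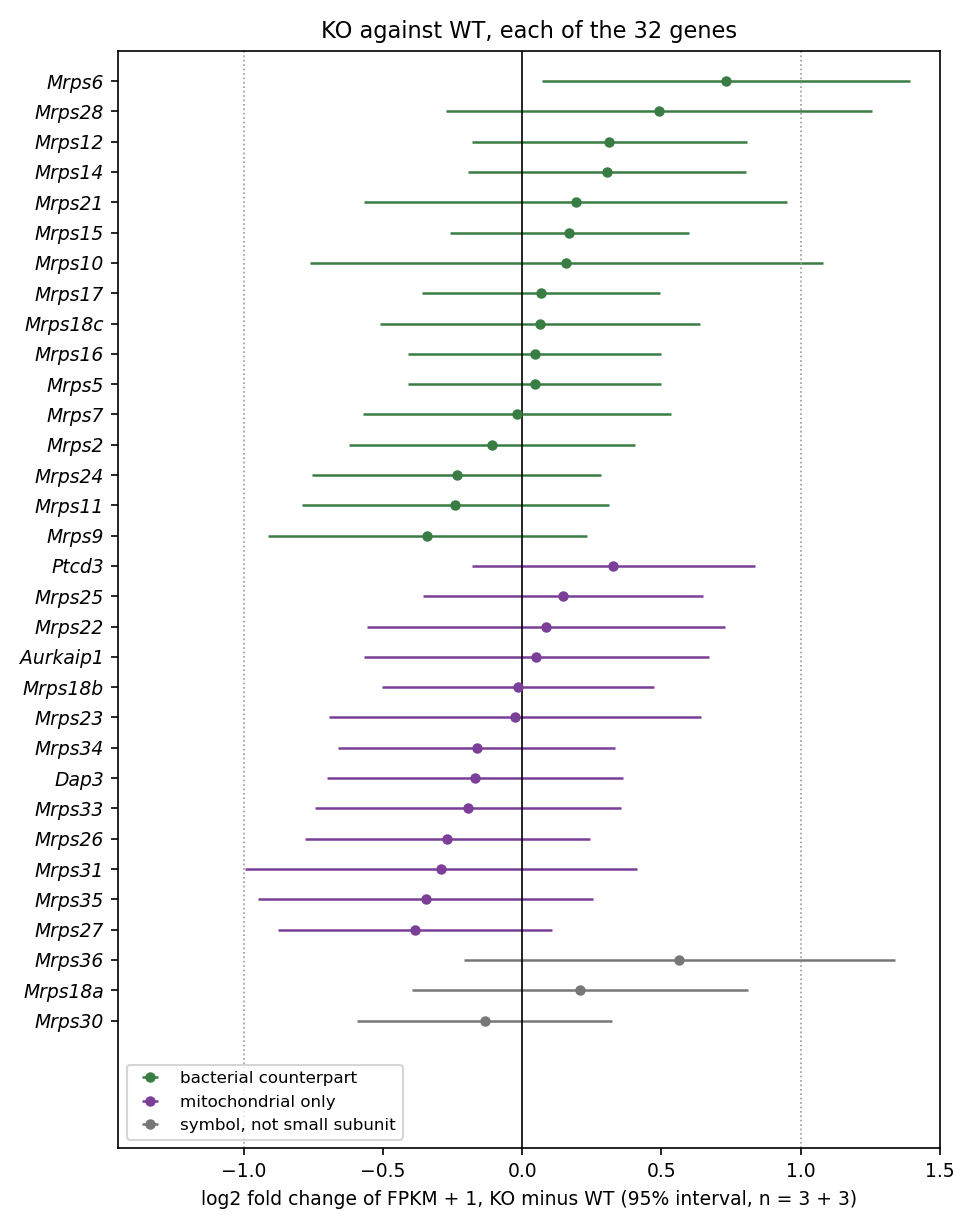
Log2 fold change of FPKM + 1, KO minus WT (x axis), with its 95% interval from limma for each gene (y axis), by class; n = 3 mice in each group, and dotted lines mark a 2-fold change. The interval of *Mrps6* alone lies on one side of 0, from 0.07 to 1.39.

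*Mrps6* codes for a protein with a bacterial counterpart, and its transcript was the one with the largest difference. Its level was 54.0, 50.3 and 32.8 FPKM in the WT mice, against 108.6 in KO 1, 51.2 in KO 2 and 75.5 in KO 3. KO 1 and KO 3 were above every WT library, and KO 2 lay among them. The means were 45.7 ± 11.4 FPKM in WT and 78.5 ± 28.8 FPKM in KO (SD, n = 3), a ratio of 1.72. The log2 fold change was 0.73 (SE 0.297, 95% interval 0.07 to 1.39), with a limma p of 0.0332 before and 0.841 after adjustment, and an exact two-sided permutation p of 0.2. The log2 fold change was 0.52 without WT 3 (limma p 0.142 before adjustment), 0.47 without KO 1 (p 0.144), 0.73 without KO 3 (p 0.066) and 1.00 without KO 2 (p 0.00415). With no filter on low FPKM and without a trended prior variance it was 0.73 as before, and the p before adjustment was 0.0918 and 0.0527.

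*Mrps6* shares its first exon with *Slc5a3*, the sodium-coupled transporter of myo-inositol, which was looked at after its values were seen. In GENCODE M21 (GRCm38) *Mrps6* lies at chr16:92058270-92112227 and *Slc5a3* at chr16:92058322-92087473, both on the plus strand, and 159 bp of exon 1 (chr16:92058322-92058480) belong to both. Reads in that exon cannot be told apart between the 2 genes. *Slc5a3* was at 4.57, 4.29 and 4.59 FPKM in WT and at 8.86, 4.81 and 7.85 FPKM in KO. Again the KO 1 and KO 3 values were far above WT, and that of KO 2 only just above. Its log2 fold change was 0.54 (SE 0.264), with a limma p of 0.0679 before and 0.841 after adjustment. The choroid plexus markers *Ttr*, *Kl* and *Folr1* were high in the same libraries, KO 1 and KO 3, and their part in the *Mrps6* and *Slc5a3* values was not tested.

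*Mrps27*, which codes for an RNA-binding protein of the pentatricopeptide repeat type, was the gene whose groups did not overlap. It was at 10.04, 8.77 and 9.89 FPKM in WT and at 8.59, 6.06 and 6.78 FPKM in KO. KO 1 lay just below the lowest WT library, and KO 2 and KO 3 lay well below it. The means were 9.57 ± 0.693 and 7.15 ± 1.30 FPKM, and the log2 fold change was -0.39 (SE 0.221, 95% interval -0.88 to 0.11), with a limma p of 0.111 before and 0.841 after adjustment and an exact two-sided permutation p of 0.1. With no filter on low FPKM the limma p before adjustment was 0.0462, and *Mrps27* took the place of *Mrps6* as the gene under 0.05. After the libraries were scaled to 1 median, no gene of the 32 was without overlap. *Ptcd2*, the neighbor 81 bp away on the other strand, was looked at for its position after these values were seen, and was at 14.2, 13.6 and 10.9 FPKM in WT and at 15.8, 18.7 and 19.6 FPKM in KO. All of its KO values were above its WT values, in the opposite direction to *Mrps27*, with a log2 fold change of 0.46 (SE 0.205) and a limma p of 0.0509 before and 0.841 after adjustment. The other mitochondrial neighbors, also looked at for their position, were *Mrpl46*, 12.7 ± 2.40 FPKM in WT and 17.7 ± 2.20 in KO with every KO value above WT, and *Sars2*, 4.65 ± 2.26 and 5.90 ± 0.538 FPKM. The plot of *Mrps6*, *Slc5a3*, *Mrps27*, *Ptcd2* and the choroid plexus markers sets these values side by side.

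**Figure D3:**
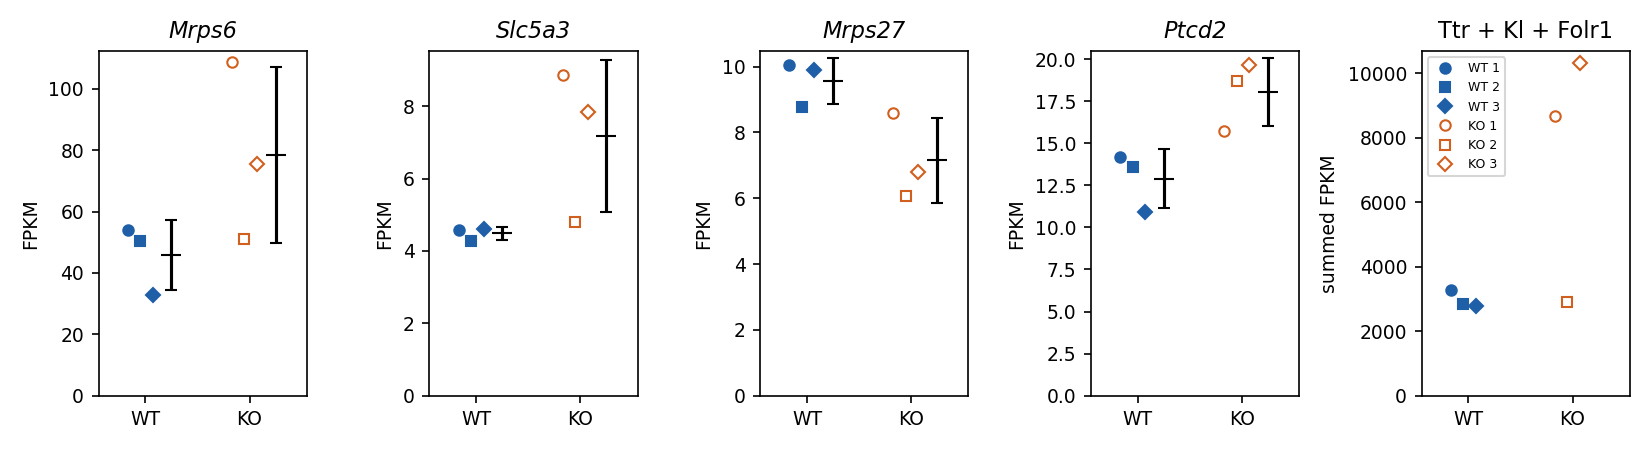
FPKM by mouse (y axis, linear from 0) in WT and KO for *Mrps6*, *Slc5a3*, *Mrps27* and *Ptcd2*, and the summed FPKM of 3 choroid plexus markers; points are mice, with mean and SD of 3 mice as black bars beside them for the genes. *Mrps6*, *Slc5a3* and the markers are high in KO 1 and KO 3, while all 3 KO points of *Mrps27* lie below the WT points.

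The other 14 small subunit genes with a bacterial counterpart besides *Mrps6* and *Mrps21* had log2 fold changes between -0.34 and 0.49. *Mrps28*, the counterpart of bacterial S1, was at 17.2, 7.41 and 15.5 FPKM in WT and at 12.1, 19.3 and 25.4 FPKM in KO. The low value of WT 2 was also the smallest estimated number of fragments among the 32 genes, 51, and the log2 fold change was 0.49 (95% interval -0.27 to 1.26), falling to 0.14 without WT 2 and rising to 0.76 without KO 1. *Mrps12*, whose protein takes part in decoding accuracy, had a log2 fold change of 0.31 (-0.18 to 0.81), and *Mrps14*, a protein of the head of the subunit, one of 0.30 (-0.20 to 0.80). Of other proteins of the head, *Mrps9* (17.5 ± 4.72 FPKM in WT and 13.5 ± 3.04 in KO) had the lowest value of the class, -0.34 (-0.91 to 0.23), *Mrps24* had -0.23 (-0.75 to 0.28) and *Mrps7* -0.02 (-0.57 to 0.54). *Mrps9* was at -0.18 without WT 1 and at -0.56 without WT 2, and *Mrps24* at -0.06 without KO 2. *Mrps10*, also of the head, had the largest SE (0.413), at 9.05, 16.02 and 19.5 FPKM in WT and at 8.32, 16.01 and 29.7 FPKM in KO. Its libraries were spread alike in both groups apart from the high KO 3. *Mrps11* was at -0.24 (-0.79 to 0.31), but at -0.0029 without KO 2 and at -0.13 without WT 2, and *Mrps2* was at -0.11 (-0.62 to 0.41). *Mrps15*, *Mrps16*, *Mrps17*, *Mrps5* and *Mrps18c* lay between 0.04 and 0.17, and the tightest of these was *Mrps17*, 15.0 ± 0.843 FPKM in WT and 15.8 ± 1.38 FPKM in KO (-0.36 to 0.49).

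Of the 13 small subunit genes specific to mitochondria, 4 were higher and 9 lower in KO, with a median log2 fold change of -0.16, against 11 higher and 5 lower and a median of 0.07 in the 16 genes with a bacterial counterpart. The lower values of the 13 genes did not hold in all settings, since their median was 0.01 with 7 of 13 higher after a correction for GC content, and 0.04 with 10 of 13 higher without KO 2. In the 16 genes 12 were higher with a median of 0.17 without KO 2, and the count fell to 8 higher with a median of 0.04 after the GC correction and without KO 3, and to 9 higher after a correction for length. *Ptcd3*, another pentatricopeptide repeat protein, which binds the RNA of the small subunit, had the highest value, 0.33 (95% interval -0.18 to 0.84), with 12.4 ± 2.60 FPKM in WT and 15.6 ± 2.29 in KO, and was at 0.16 without WT 3 and at 0.19 after the GC correction. *Mrps27*, *Mrps35* (-0.35, -0.95 to 0.25), *Mrps31* (-0.29, -0.997 to 0.41) and *Mrps26* (-0.27, -0.78 to 0.24) had the lowest. Single libraries set much of these values, since that of *Mrps35* was -0.07 and that of *Mrps31* 0.02 without KO 2, and that of *Mrps26* -0.09 without WT 2. *Mrps33* (-0.19), *Dap3* (-0.17), *Mrps34* (-0.16), *Mrps23* (-0.03), *Aurkaip1* (0.05), *Mrps22* (0.09) and *Mrps25* (0.15) lay between, each with an interval on both sides of 0. *Aurkaip1* had an even WT group (44.9 to 47.7 FPKM) and a KO group spread from 29.7 to 65.0 FPKM. *Chchd1*, a small subunit protein whose symbol falls outside the rule, was at 34.8, 22.8 and 29.8 FPKM in WT and at 56.9, 22.9 and 47.4 FPKM in KO, with KO 1 and KO 3 above every WT library and KO 2 among them. Its log2 fold change was 0.45 (SE 0.322), with a limma p of 0.192 before and 0.862 after adjustment. It rose to 0.83 (p 0.00443 before adjustment) without KO 2, and was 0.19 (p 0.576) without KO 1, 0.29 (p 0.454) without WT 2 and 0.28 (p 0.335) after a correction for transcript length.

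Leaving out 1 mouse at a time moved the log2 fold changes of most other genes as well, between 0.14 and 0.43 for *Mrps12*, 0.18 and 0.45 for *Mrps14*, 0.08 and 0.25 for *Mrps15*, 0.0021 and 0.11 for *Mrps17*, 0.0009 and 0.27 for *Mrps25*, and -0.20 and -0.03 for *Mrps30*.

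The 3 paralogs of the S18 protein kept 1 order, *Mrps18c* above *Mrps18a* above *Mrps18b*, in 6 of 6 libraries. *Mrps18a*, of the large subunit, was at 35.7, 30.2 and 35.3 FPKM in WT and at 51.2, 24.8 and 46.5 FPKM in KO, and *Mrps18b*, of the small subunit and specific to mitochondria, at 10.6, 13.8 and 9.95 FPKM in WT and 10.9, 10.01 and 12.9 FPKM in KO. *Mrps18a* and *Mrps18c* shared a pattern across the KO libraries, with KO 1 and KO 3 above and KO 2 below every WT library, while the *Mrps18b* groups overlapped fully. The log2 fold changes were 0.21 (SE 0.271), 0.07 (SE 0.258) and -0.01 (SE 0.219) for *Mrps18a*, *Mrps18c* and *Mrps18b*, with limma p values before adjustment of 0.462, 0.806 and 0.949, and those of *Mrps18c* and *Mrps18b* changed sign after a correction for GC content. That of *Mrps18a* ran from 0.02 (p 0.958 before adjustment) without KO 1 to 0.52 (p 0.0141) without KO 2. *Mrps30*, a large subunit protein, was at 11.6, 11.9 and 14.7 FPKM in WT and at 12.6, 10.5 and 11.3 FPKM in KO, with a log2 fold change of -0.13 (SE 0.206). Its values lay close together in both groups. *Mrps36*, of the 2-oxoglutarate dehydrogenase complex, was at 12.9, 35.7 and 23.5 FPKM in WT and at 40.1, 23.7 and 38.8 FPKM in KO. The log2 fold change was 0.57 (SE 0.347), with a limma p of 0.134 before and 0.848 after adjustment, and it ranged from 0.19 (p 0.542 before adjustment) without WT 1, the lowest WT library, to 0.90 (p 0.0264) without WT 2, the highest.

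The KO libraries differed among themselves more than the groups did. Over the 32 genes, the median deviation from the WT mean of each gene was 0.08 in KO 1, -0.39 in KO 2 and 0.17 in KO 3 (log2), and between -0.0029 and 0.04 in the WT libraries. KO 2 was the lowest of the 6 libraries in 17 of 32 genes (53.1%), against 25.0% of all genes tested. KO 3 was above every WT library in 14 genes (43.8%, against 29.2% of all genes) and KO 1 in 12 (37.5%, against 31.1%). The SD was larger in KO than in WT in 22 of 32 genes (68.8%), against 63.9% of all genes. KO 1 and KO 3 were both above every WT library in 6 genes, *Aurkaip1*, *Mrps15*, *Mrps18a*, *Mrps18c*, *Mrps36* and *Mrps6* (18.8%), a share near the 16.3% of all genes. The count of genes with a p under 0.05 before adjustment rose from 1 to 5 without KO 2, these being *Aurkaip1*, *Mrps18a*, *Mrps18c*, *Mrps21* and *Mrps6* (15.6%), when that of all genes rose to 13.1%.

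KO 2 also had the lowest median in other ribosome lists, though by little in the large subunit. The WT medians lay between -0.07 and 0.08 in the large subunit and between -0.09 and 0.06 in the cytosolic small subunit. The median deviations of KO 1, KO 2 and KO 3 were 0.30, -0.12 and 0.22 in the 49 large subunit genes (48 of the Mrpl series and *Gadd45gip1*), and 0.25, -0.57 and 0.02 in the 32 genes of the cytosolic small subunit, while over all genes tested they were 0.01, -0.02 and 0.0. Within the small subunit they were -0.10, -0.52 and 0.15 in the 13 genes specific to mitochondria and 0.11, 0.04 and 0.20 in the 16 genes with a bacterial counterpart, of which 7 were nevertheless lowest in KO 2, against 8 of the 13. These differences between lists were not tested. Transcript length moved with the deviations in some libraries. Across the 32 genes, Spearman coefficients of the deviation with the longest annotated transcript were -0.455, 0.16 and -0.324 in KO 1, KO 2 and KO 3, against -0.244, 0.229 and -0.143 over the 14170 genes with a length. After the libraries were corrected for length the medians over the 32 genes were 0.03, -0.29 and 0.13, and after a correction for GC content 0.09, -0.30 and 0.17. The low median of KO 2 was thus present after either correction, at a smaller size, and KO 2 was also the library with the fewest fragments.

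**Figure D4:**
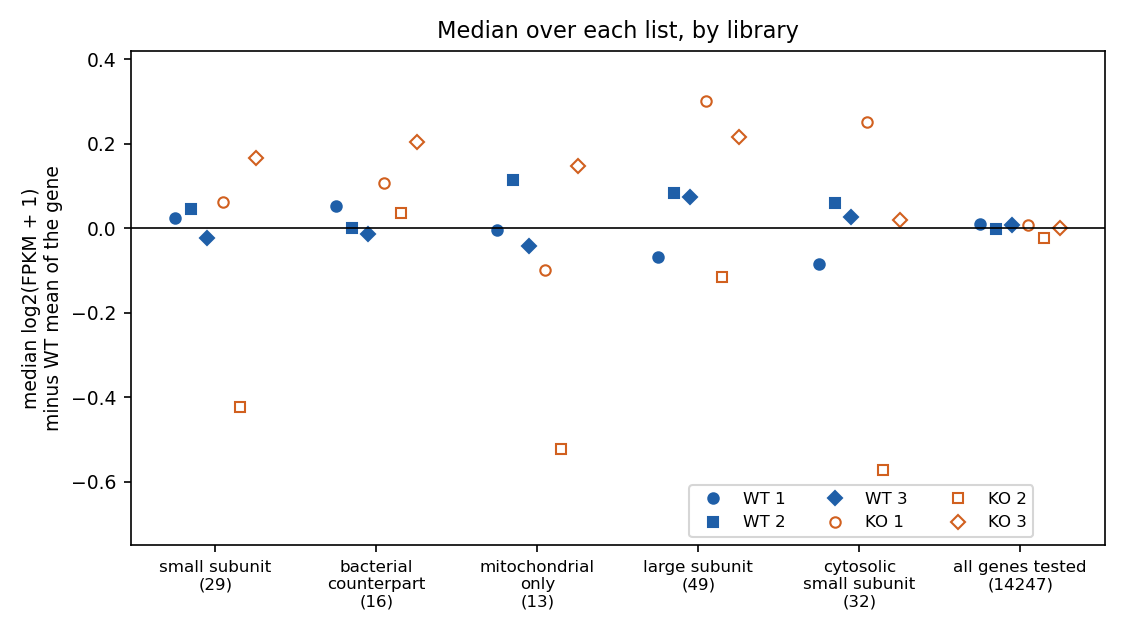
Median over the genes of each list (x axis, number of genes in parentheses) of log2(FPKM + 1) minus the WT mean of the gene (y axis), 1 symbol for each mouse, filled for WT and open for KO. KO 2 is far below the other libraries in the small subunit genes specific to mitochondria (-0.52) and in the cytosolic small subunit (-0.57), but not in the genes with a bacterial counterpart (0.04) or over all genes tested (-0.02).

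Among the genes that act with the small subunit, none passed after adjustment. In the large subunit, 34 of 49 genes were higher in KO, with a median log2 fold change of 0.14, and 2 higher and 1 lower (6.12%, against 5.88% of all genes) had a p under 0.05 before adjustment. The higher genes were *Mrpl38* (18.4 ± 3.45 FPKM in WT and 29.4 ± 0.72 in KO, log2 fold change 0.66, limma p 0.00878 before and 0.841 after adjustment) and *Mrpl39* (0.51, 0.0401 and 0.841), and the lower gene was *Gadd45gip1*. In the large subunit 7 genes (14.3%, against 5.37% of all genes) had every KO value above every WT value and 1 (2.04%, against 5.7%) every value below, where the 32 genes had 0 and 1, and the difference between these lists was not tested. The large subunit gene with every value below was *Gadd45gip1*, the gene deleted in these mice. Of 8 assembly factors of the small subunit, 3 were higher and 5 lower, with a median of -0.07. *Mettl15*, which methylates the RNA of the small subunit, had the largest difference, -0.64 (limma p 0.11 before adjustment), at 2.40 ± 0.949 FPKM in WT and 1.14 ± 0.458 in KO, and its groups overlapped. Of 11 mitochondrial translation factors, 8 were higher, with a median of 0.07 and the largest difference in *Guf1*, a GTPase of mitochondrial translation, 0.42 (limma p 0.253 before adjustment), which rests on KO 2 at 13.5 FPKM against 4.51 to 6.07 in the other libraries. Of 8 tested genes of mitochondrial transcription, 5 were higher, with a median of 0.34 and the largest difference in *Tefm*, the elongation factor, 0.60 (limma p 0.0739 before adjustment), with every KO value above every WT value. In the cytosolic small subunit 9 of 32 genes were higher and 23 lower, with a median of -0.10, and 0 had a p under 0.05 before adjustment in limma.

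Several of the 32 genes share exon sequence with a neighbor. Exons of another protein-coding gene overlap 8 of them, on the same strand in 3 (*Mrps6*, *Mrps24* with 226 bp of *Urgcp*, and *Mrps34* with 763 bp of *Nme3*) and on the opposite strand in 6. The longest overlap was 4590 bp between *Mrps25* and *Nr2c2*. The libraries were prepared with a directional kit, but whether counting used the strand was not stated, so that reads of these overlapping stretches may be split or shared between the genes.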

How the data were processed

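RNA of isolated brain microvessels was sequenced in 3 WT and 3 TEKCRIF1 KO mice, each with its own library. The authors mapped reads with TopHat to mm10, per the submitters' processing notes, and deposited FPKM values for 23183 gene symbols. Whether counting used the strand, and any scaling between libraries, is not given in the sources used here. Here, log2(FPKM + 1) was tested in limma 3.58.1 (R 4.3.3) with a trended prior, without scaling or a replicate block, for genes whose mean reached 1 FPKM, with Benjamini-Hochberg adjustment over all 14247 of them. The pseudocount of 1 understates changes of low genes. Exact two-sided permutation tests used 20 assignments of the mice. The fit was checked on simulated data. Depth was estimated from low FPKM values, as no counts were used. The intervals rest on the spread between the libraries, in which differences between mice and the sampling of fragments are not separated. Lengths and positions came from GENCODE M21, promoters from RefSeq. The genes and lists were chosen with earlier results of these data known. Every gene of the rule was named, with each library given for genes with an unadjusted p under 0.05, without overlap, among the 3 highest or lowest in WT, for S18 paralogs, *Mrps30*, *Mrps36*, *Chchd1* and *Gadd45gip1*, and for a few others shown for their spread; of the other lists, genes with a p under 0.05 or the largest difference were named, and a result that this rule would name is not reported here. Groups of 3 mice were too small for an outlier test. Alternatives were the filter, the pseudocount, scaling by the median, a trimmed mean or quantiles, the prior, a replicate block, corrections for length and GC content, and leaving out each mouse.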

Additional observations from a re-analysis of the deposited data

How the results depend on the processing

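No gene of the 32 had an adjusted p under 0.05 under any alternative run. The number with a p under 0.05 before adjustment was 0 without the trended prior (5.58% of all genes) and 0 to 5 when 1 mouse was left out (3.16% to 13.1% of all genes), against 1, the highest of both being without KO 2. The number of genes whose groups did not overlap was 0 after median scaling (1566 of 14247 over all genes), 2 after quantile normalization (1716 of 14247), 2 after length correction (1696 of 14170), 4 after GC correction (9.56% of all genes) and 4 to 7 when 1 mouse was left out (16.9% to 30.7% of all genes, the highest of both being without KO 2). The median over the 32 genes ranged from -0.1042 (without KO 1) to 0.0754 (without WT 2). Some log2 fold changes changed sign. After length correction they were -0.0271 for *Mrps18c* and -0.0885 for *Mrps21*. After GC correction they were -0.0042 for *Mrps16*, -0.0342 for *Mrps17*, 0.0343 for *Mrps18b*, -0.0361 for *Mrps18c*, 0.0154 for *Mrps23*, 0.0118 for *Mrps34*, -0.014 for *Mrps5* and 0.0819 for *Mrps7*. When 1 mouse was left out they ranged over -0.1656 to 0.3875 for *Aurkaip1*, -0.343 to 0.0111 for *Dap3*, -0.2701 to 0.5903 for *Mrps10*, -0.0704 to 0.1907 for *Mrps16*, -0.1088 to 0.1175 for *Mrps18b*, -0.1198 to 0.3567 for *Mrps18c*, -0.2655 to 0.0519 for *Mrps2*, -0.098 to 0.5742 for *Mrps21*, -0.1539 to 0.3092 for *Mrps22*, -0.262 to 0.2824 for *Mrps23*, -0.5198 to 0.0151 for *Mrps31*, -0.4224 to 0.0351 for *Mrps33*, -0.3477 to 0.0154 for *Mrps34*, -0.0647 to 0.1516 for *Mrps5*, -0.2151 to 0.1828 for *Mrps7*. The causes were not tested. Correlations between the deviations of same-numbered mice were 0.037, 0.027 and 0.002. They cannot show whether the numbers paired the mice, since groups of 3 mice leave a weak pairing unseen. With the replicate block 1 of the 32 genes and 871 of all genes had a p under 0.05 before adjustment, against 1 and 838, and no call on the 32 genes changed. With 3 mice in each group and 6400000 fragments in the shallowest library, the smallest change that could reach a p of 0.05 before adjustment was 1.45-fold at the median gene, and no gene passed after adjustment.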
